A study of Mus musculus with 4 samples.

Results

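The genes described are 9 neurotrophic factors and receptors, taken from the 29224 genes of the deposited tables by name. They are the ligands Bdnf, Ntf3, Nrtn, Artn, Manf and Cntf, and the receptors Ntrk2, Ntrk3 and Gfra1. The genes were taken by name, but the list was drawn up with earlier results of these data known. Levels were read in RNA-seq libraries of cells that the paper describes as cortical astrocytes, taken from mice at postnatal day 5. The cells were sorted by magnetic beads against GLAST, the glutamate transporter encoded by Slc1a3 that astrocytes show on their surface. Neuron markers were also counted in all libraries, so the levels are those of the sorted cells together. The 2 Ezh2 f/f libraries came from mice whose Ezh2 alleles are floxed, and the 2 Ezh2 cKO libraries from Ezh2 flox/flox mice crossed with Aldh1l1-icre mice, so that all 4 libraries share the floxed alleles. Ezh2 encodes the enzyme of Polycomb repressive complex 2 (PRC2), which methylates histone H3 at lysine 27. The Aldh1l1 promoter drives Cre in astrocytes, but also in other cells that derive from Aldh1l1-expressing progenitors. Whether a library is 1 mouse or a pool is not given, so p-values measure only the spread between these libraries, which may be technical.

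Neurotrophic factors are secreted proteins that keep neurons alive, guide the growth of their processes and tune their synapses. Neurotrophins such as BDNF and neurotrophin-3 bind Trk receptor kinases, and their precursors bind the receptor p75 (gene Ngfr) together with sortilin. The GDNF family, to which neurturin and artemin belong, binds a GFRα protein on the membrane, and the pair then engages the kinase RET. CNTF is a cytokine of the interleukin-6 family that signals through gp130 and JAK kinases. MANF belongs to none of these families and is known as a protein of the endoplasmic reticulum that is released under stress. Astrocytes are a source of several of these factors, and the TrkB that they carry is mostly a truncated form without the kinase.

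The targeted gene was read first, as a check of the labels. Ezh2 was counted 434 and 327 times in the Ezh2 f/f libraries, against 211 and 164 times in the Ezh2 cKO libraries (log2 fold change -1.11, SE 0.16, edgeR adjusted p = 3.26e-05). Both Ezh2 cKO libraries were lower, and transcript was still counted in both. Of all genes tested, 33.6% were lower at an edgeR adjusted p under 0.05, so a lower Ezh2 is by itself a weak check. The counts cover the whole gene, exons outside the floxed part included. Total counts per library ran from 16273308 to 17522152, so that the 3 counts taken as a floor correspond to between 0.171 and 0.184 CPM of raw totals. Levels in CPM are counts scaled to a common library size with the TMM factors of edgeR. Only the floor and the cut of the filter on low counts use raw totals, without those factors. With 2 libraries against 2, an exact two-sided permutation test cannot give a p below 0.333, so the tests below come from edgeR's quasi-likelihood fit over all genes, with Benjamini-Hochberg adjusted p under 0.05 as the threshold.

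Markers of several cell types moved with the genotype in these bulk libraries. A call in either direction was common, at 34.7% higher and 33.6% lower over all genes tested. Slc1a3, which encodes the antigen of the sort, was counted 1664 and 1617 times in Ezh2 f/f, against 5334 and 5191 times in Ezh2 cKO (log2 fold change 1.59, SE 0.09, edgeR adjusted p = 2.71e-09). Aldh1l1 was counted 1285, 1250, 1280 and 1155 times, a log2 fold change of -0.15 that was not past the threshold (edgeR adjusted p = 0.175). Of the 12 astrocyte markers 10 were higher in Ezh2 cKO, and their summed level was 738.6 to 755.8 CPM in Ezh2 f/f and 3175 to 3502 CPM in Ezh2 cKO. Of the 12 neuron markers 7 were higher and 2 lower, with sums of 6460 to 6671 CPM against 9715 to 9963 CPM. Without Tubb3, the most abundant of them and 1 of those that fell, the sums were 2901 to 3005 against 7548 to 7721 CPM. In both groups the neuron list summed above the astrocyte list, with or without Tubb3. Levels in these libraries therefore cannot be assigned to astrocytes alone. All 8 oligodendrocyte precursor markers (193.9 to 198.6 against 574.5 to 644.9 CPM), all 7 tested of 8 oligodendrocyte markers (83.04 to 95.72 against 742.9 to 867.7 CPM) and all 8 microglia markers (80.17 to 84.85 against 238.6 to 274.6 CPM) were higher. Of these, 1 oligodendrocyte marker (Mobp) and 2 microglia markers (P2ry12 and Aif1) passed the filter on low counts only through the Ezh2 cKO libraries. The choroid and ependymal list fell in 4 of 7 tested genes, rose in 2 and went from 398.5 to 783.4 CPM down to 17.29 to 19.65 CPM. Most of that sum was Ttr, at 369.9 and 737.2 CPM in Ezh2 f/f, and without it the list summed to 28.6 to 46.21 against 16.6 to 19.37 CPM. In that list the 2 genes that rose passed the filter only through Ezh2 cKO, and 2 of those that fell only through Ezh2 f/f. The endothelial list (3 higher, 1 of them passing only through Ezh2 cKO, and 1 lower of 8 tested) and the mural list (3 and 1 of 7) had ratios of summed level of 1.07 and 1.58. Without their most abundant genes, Cldn5 and Rgs5, these ratios were 1.19 and 1.2. The progenitor list (2 higher and 6 lower of 8) stood at a median of -0.87 in log2 fold change, and its summed level had a ratio of 1.20 with Fabp7 and 0.494 without it. No defining marker of any list was at 0 in all libraries. The part of these shifts in the neurotrophic genes was not tested. More or fewer cells of a type cannot be told apart from more or less RNA per cell.

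Of the 9 genes, 8 had enough counts to be tested, and 5 of them rose in Ezh2 cKO (Bdnf, Nrtn, Artn, Manf and Ntrk2), 1 fell (Gfra1) and 2 did not pass the threshold (Ntf3 and Ntrk3). Bdnf and its receptor Ntrk2 were both among the genes that rose, while neither Ntf3 nor its preferred receptor Ntrk3 passed. Over all 16793 genes tested, 34.7% were called higher and 33.6% lower, so a call in either direction was common in these libraries. The median log2 fold change of the 8 tested genes was 0.67, beside 0.02 over all genes tested. Artn is counted among the 5, and it passed the filter on low counts only through the Ezh2 cKO libraries. With either Ezh2 cKO library left out, or with Ezh2 f/f replicate 1 left out, 3 genes were called higher, and the number called lower was 0 without Ezh2 cKO replicate 1. In CPM, both Ezh2 cKO libraries lay above both Ezh2 f/f libraries for 5 of the 8 tested genes, below them for 1 and among them for 2. The same separation above was seen in 42.8% of all genes tested, and below in 41.5%.

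**Figure D1:**
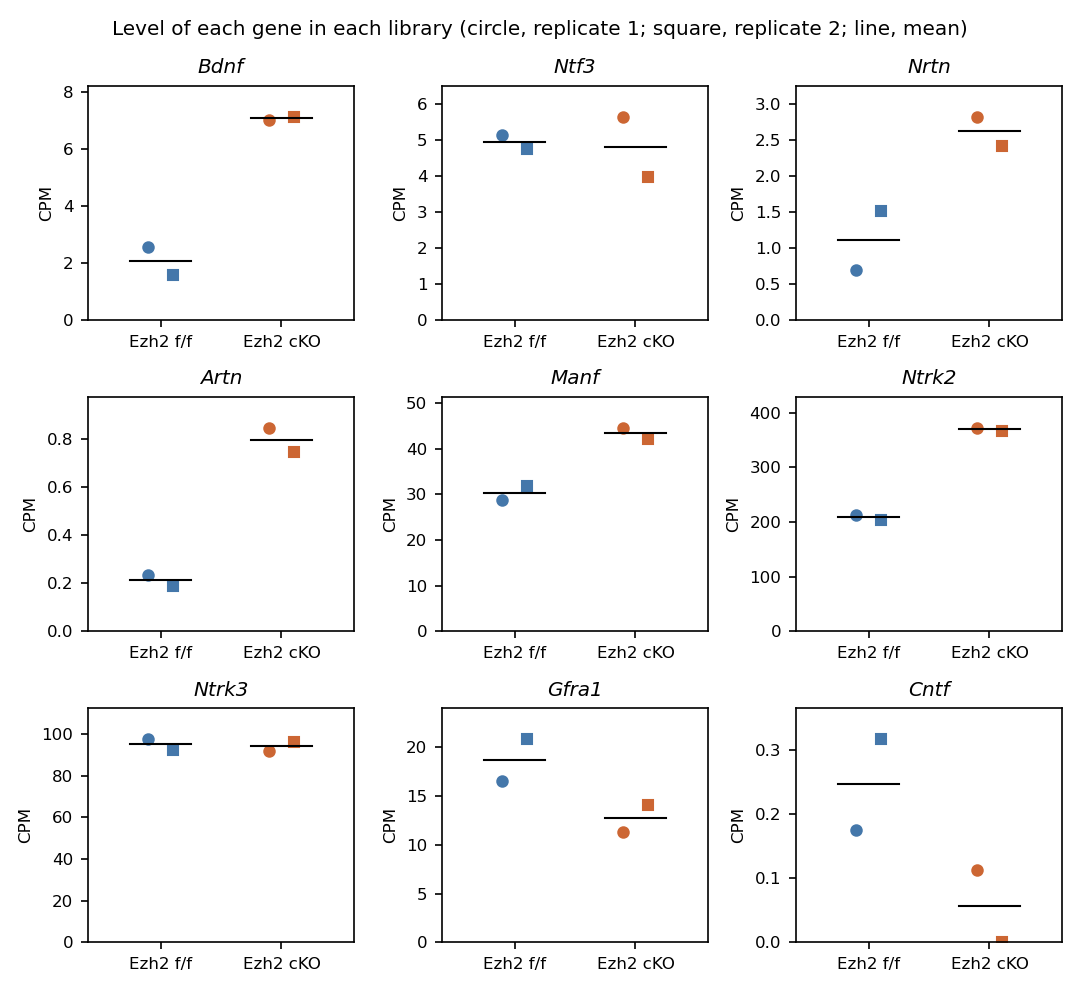
Level of each of the 9 genes in each library, in CPM on a linear axis that starts at 0, with Ezh2 f/f at the left and Ezh2 cKO at the right of each panel. Circles are replicate 1, squares are replicate 2 and lines are group means. Both Ezh2 cKO points lie above both Ezh2 f/f points for Bdnf, Nrtn, Artn, Manf and Ntrk2, below them for Gfra1 and Cntf, and among them for Ntf3 and Ntrk3.

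Among the ligands, Bdnf had the smallest adjusted p. It encodes the neurotrophin that activates TrkB and is known for its role in synaptic plasticity. It was counted 44 and 25 times in the Ezh2 f/f libraries and 124 times in each Ezh2 cKO library. The Ezh2 cKO libraries were nearly equal once scaled, and both were far above the higher of the Ezh2 f/f libraries. The Ezh2 f/f mean was 2.08 ± 0.696 CPM and the Ezh2 cKO mean 7.09 ± 0.0871 CPM (SD over 2 libraries each, n = 2). This was a log2 fold change of 1.76 (SE 0.26, 95% interval 1.20 to 2.32, edgeR adjusted p = 3.7e-05), or 3.38-fold. The difference was past the threshold in each fit that left out 1 library, with log2 fold changes from 1.44 to 2.15, and the lowest of these was without Ezh2 f/f replicate 2. On log2(FPKM + 1) values the fitted difference was 0.72, since that pseudocount exceeds the level of the gene in Ezh2 f/f.

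The genes whose profile over the 4 libraries was most like that of Bdnf were Gcnt2, Gm9954 and Dusp19. Their distances from it, as the root of summed squared differences in centred log2 CPM, were 0.0878, 0.0899 and 0.111 among 3113 genes of like level. Gcnt2, a glycosyltransferase gene, was counted 42, 22, 111 and 116 times. The likeness is a description over 4 libraries of 2 groups.

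Ntf3 encodes neurotrophin-3, the preferred ligand of TrkC. It was counted 88 and 75 times in Ezh2 f/f, against 100 and 69 times in Ezh2 cKO. The groups overlapped, with the highest and the lowest library both Ezh2 cKO. The log2 fold change was -0.04 (SE 0.24, edgeR adjusted p = 0.89), and its 95% interval from -0.55 to 0.47 leaves room for a moderate change in either direction. Its sign changed with the library left out and with the FPKM scale.

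Per length, Ntf3 stood above Bdnf in every library. The ratio of their FPKM values (counts per kilobase of exon, scaled to the library total) was 7.25 and 10.9 in Ezh2 f/f, against 2.93 and 2.02 in Ezh2 cKO. In Ezh2 cKO this order rests on the lengths that the FPKM values imply, 6217 bases for Bdnf and 1714 for Ntf3. By counts, Bdnf was above Ntf3 in both Ezh2 cKO libraries (124 and 124 against 100 and 69). Both Ezh2 cKO ratios were below both Ezh2 f/f ratios, and the exact two-sided permutation p of 0.333 is the smallest that 2 against 2 can give.

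Nrtn and Artn, the GDNF family ligands of the set, were both low and both higher in Ezh2 cKO. Nrtn encodes neurturin, which prefers the coreceptor GFRα2, and it was counted 12 and 24 times in Ezh2 f/f, against 50 and 42 times in Ezh2 cKO. The groups did not overlap, though the Ezh2 f/f libraries differed from each other by more than the Ezh2 cKO libraries did. The Ezh2 f/f mean of 1.11 ± 0.582 CPM and the Ezh2 cKO mean of 2.63 ± 0.291 CPM (SD, n = 2 libraries each) gave a log2 fold change of 1.25 (SE 0.37, 95% interval 0.44 to 2.05, edgeR adjusted p = 0.00876). The call was lost in DESeq2's Wald test (adjusted p = 0.0862) and in edgeR without Ezh2 f/f replicate 1 (0.78, adjusted p = 0.0795), without Ezh2 cKO replicate 1 (1.13, adjusted p = 0.103) and without Ezh2 cKO replicate 2 (1.36, adjusted p = 0.0513). Without Ezh2 f/f replicate 2 the value was 1.88 and the call held.

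Artn encodes artemin, the ligand of GFRα3. It was counted 4 and 3 times in Ezh2 f/f, near the floor of 3 counts, and 15 and 13 times in Ezh2 cKO. Both Ezh2 cKO libraries were higher, but neither Ezh2 f/f library reached the 0.588 CPM that the filter on low counts asks for. The summed counts were 7 and 28, a depth-scaled ratio of 3.97 with an exact 95% interval from 1.7 to 10.8 that covers counting error only. The fitted log2 fold change was 1.87 (SE 0.58, 95% interval 0.63 to 3.11, edgeR adjusted p = 0.0104). The call was lost in DESeq2 (1.89, adjusted p = 0.168) and in edgeR without any 1 of the 4 libraries (1.73 to 2.03, adjusted p from 0.0586 to 0.0986), while the fold stayed about as large.

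Manf encodes the stress-released factor of the endoplasmic reticulum, and per length its level was above that of each other ligand of the set in every library. It was counted 493 and 500 times in Ezh2 f/f, against 788 and 730 times in Ezh2 cKO. Both Ezh2 cKO libraries were higher, and the gap between groups was several times the gap within them. The Ezh2 f/f mean of 30.3 ± 2.09 CPM and the Ezh2 cKO mean of 43.4 ± 1.81 CPM (SD, n = 2 libraries each) gave a log2 fold change of 0.52 (SE 0.11, 95% interval 0.29 to 0.75, edgeR adjusted p = 6.26e-04). As deposited, the span of Manf shares 6511 bases with Rbm15b on the same strand and 42681 bases with Dcaf1 on the other. Rbm15b was counted 3861, 3304, 1685 and 1642 times and Dcaf1 492, 371, 272 and 256 times, in the order Ezh2 f/f then Ezh2 cKO. Both neighbours were thus lower in Ezh2 cKO where Manf was higher, and how reads in the shared bases were assigned is not given in the sources used here.

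Cntf, the cytokine ligand, was at the limit of detection. It was counted 3 and 5 times in Ezh2 f/f, against 2 and 0 times in Ezh2 cKO, and it was not tested. Summed counts were 8 and 2, a depth-scaled ratio of 0.248 with an exact 95% interval from 0.0257 to 1.24 for counting error, so no difference was detectable at this depth.

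Among the receptors, Ntrk2 was the most deeply counted. Ntrk2 encodes TrkB, the receptor of BDNF and neurotrophin-4. It was counted 3641 and 3207 times in Ezh2 f/f, against 6577 and 6344 times in Ezh2 cKO. The groups were far apart and the libraries of each were close together. The Ezh2 f/f mean of 208 ± 6.42 CPM and the Ezh2 cKO mean of 369 ± 4.88 CPM (SD, n = 2 libraries each) gave a log2 fold change of 0.82 (SE 0.08, 95% interval 0.65 to 1.00, edgeR adjusted p = 9.09e-07), or 1.77-fold. Trim9, Tagln3 and Sema7a had the profiles most like that of Ntrk2 among 1366 genes of like level, at distances of 0.0293, 0.0577 and 0.0629 in centred log2 CPM. These encode a neuronal ubiquitin ligase, a neuronal protein of the transgelin family and a semaphorin. Trim9 was counted 2560, 2306, 4713 and 4581 times.

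Ntrk3 encodes TrkC, the receptor of neurotrophin-3, and its level was alike in all libraries. It was counted 1672 and 1450 times in Ezh2 f/f, against 1624 and 1668 times in Ezh2 cKO, so the groups overlapped. The log2 fold change was -0.01 (SE 0.09, edgeR adjusted p = 0.904), with a 95% interval from -0.21 to 0.19. A long noncoding gene on the other strand within its span, Gm9885, was counted 43, 33, 87 and 99 times. Strand use in the counting is not given in the sources used here.

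Setting both Trk receptors side by side per length, the FPKM ratio of Ntrk2 to Ntrk3 was 3.41 and 3.46 in Ezh2 f/f, against 6.33 and 5.95 in Ezh2 cKO. Its size rests on the lengths that the FPKM values imply, 19292 bases for Ntrk2 and 30170 for Ntrk3. The ratios of the 2 groups did not overlap (exact two-sided permutation p = 0.333, the smallest possible). The FPKM ratio of Ntrk2 to Ngfr, the p75 receptor, went from 2.43 and 1.98 to 11.4 and 10.6. Truncated and kinase-bearing receptors cannot be separated in these gene-level counts: GENCODE M21 lists 7 complete coding transcripts of Ntrk2, with proteins of 466 to 821 residues, and 4 of Ntrk3, with proteins of 612 to 864 residues.

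Gfra1 was the member that fell. It encodes GFRα1, the coreceptor that binds GDNF and presents it to RET or NCAM. It was counted 283 and 328 times in Ezh2 f/f, against 200 and 244 times in Ezh2 cKO. Both Ezh2 cKO libraries were lower, by a margin no wider than the gap between replicates. The Ezh2 f/f mean of 18.7 ± 3.04 CPM and the Ezh2 cKO mean of 12.7 ± 1.93 CPM (SD, n = 2 libraries each) gave a log2 fold change of -0.56 (SE 0.16, 95% interval -0.91 to -0.20, edgeR adjusted p = 0.0082). The call was lost in limma on log2(FPKM + 1) (adjusted p = 0.0615) and log2(FPKM + 0.1) (adjusted p = 0.0655), and in edgeR without Ezh2 cKO replicate 1 (-0.41, adjusted p = 0.119). The FPKM ratio of Gfra1 to Ret was 3.97 and 3.52 in Ezh2 f/f, against 1.36 and 1.92 in Ezh2 cKO, and the ratio to Gfra2 was 0.476 and 0.457 against 0.238 and 0.309.

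**Figure D2:**
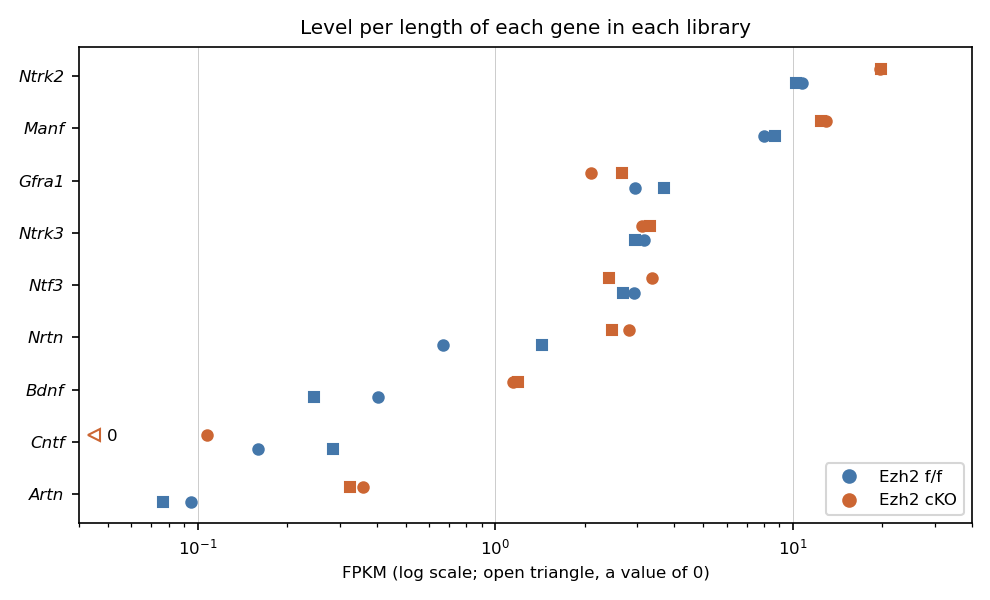
FPKM of each of the 9 genes in each library on a log axis, ordered by mean level, with blue for Ezh2 f/f, orange for Ezh2 cKO, circles for replicate 1 and squares for replicate 2. Ntrk2 and Manf stand above the rest in both groups, and the open triangle marks Cntf, at 0 in Ezh2 cKO replicate 2.

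Per length, the genes fell into a similar order in both groups. This order rests on the lengths that the FPKM values imply, which ran from 1023 bases for Nrtn to 30170 for Ntrk3. Ntrk2 was highest, with mean FPKM of 10.5 ± 0.393 in Ezh2 f/f, against 19.7 ± 0.0317 in Ezh2 cKO (SD, n = 2 each). Its rank among all genes by mean FPKM went from 4700 to 2827. Manf followed, at 8.35 ± 0.520 and 12.7 ± 0.341 FPKM.

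Below them in Ezh2 f/f came Gfra1 at 3.32, Ntrk3 at 3.06 and Ntf3 at 2.81 FPKM. The libraries of Gfra1 and Ntrk3 overlapped, and those of Ntf3 lay just below them. Nrtn was at 1.06, Bdnf at 0.326, Cntf at 0.223 and Artn at 0.0858 FPKM, and the libraries of Bdnf and Cntf overlapped. By counts in Ezh2 f/f, Bdnf (44 and 25) was above Cntf (3 and 5). In Ezh2 cKO, Ntrk3 (3.21), Ntf3 (2.89), Nrtn (2.64) and Gfra1 (2.39) formed a group in which each overlapped its neighbour. Bdnf was at 1.17, Artn at 0.342 and Cntf at 0.0538 FPKM. The 4 GDNF family ligands Gdnf, Nrtn, Artn and Pspn together summed to 2.37 and 2.32 FPKM in Ezh2 f/f and 4.57 and 4.72 FPKM in Ezh2 cKO.

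PRC2 is known to sit at promoters rich in CG dinucleotides, so the promoter windows of the set were read from RefSeq (GRCm38.p6), 250 bases before and 50 after each start. Windows were found for 7 of the 9 genes, 14 in all, and not for Manf and Ntrk3. The 4 printed here are the most CG-rich windows among the genes that rose (Nrtn and Ntrk2), a window of Bdnf that holds a further motif, and the window of Gfra1, the gene that fell. They read 5′ to 3′ on the strand of the gene, with each CG in capitals.
Nrtn, chr17:56757499-56757798, minus strand: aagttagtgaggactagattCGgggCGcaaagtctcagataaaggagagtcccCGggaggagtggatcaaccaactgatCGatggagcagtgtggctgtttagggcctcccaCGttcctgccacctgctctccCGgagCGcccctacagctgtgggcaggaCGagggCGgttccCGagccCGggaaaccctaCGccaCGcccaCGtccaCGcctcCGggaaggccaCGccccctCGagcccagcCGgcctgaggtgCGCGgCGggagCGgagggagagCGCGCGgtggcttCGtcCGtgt
Ntrk2, chr13:58806319-58806618, plus strand: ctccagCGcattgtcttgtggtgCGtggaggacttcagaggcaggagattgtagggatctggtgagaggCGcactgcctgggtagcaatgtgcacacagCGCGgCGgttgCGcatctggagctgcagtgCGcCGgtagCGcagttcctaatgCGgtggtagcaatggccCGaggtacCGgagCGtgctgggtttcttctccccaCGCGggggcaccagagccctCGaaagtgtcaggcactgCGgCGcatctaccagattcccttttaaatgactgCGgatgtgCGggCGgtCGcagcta
Bdnf, chr2:109692186-109692485, plus strand: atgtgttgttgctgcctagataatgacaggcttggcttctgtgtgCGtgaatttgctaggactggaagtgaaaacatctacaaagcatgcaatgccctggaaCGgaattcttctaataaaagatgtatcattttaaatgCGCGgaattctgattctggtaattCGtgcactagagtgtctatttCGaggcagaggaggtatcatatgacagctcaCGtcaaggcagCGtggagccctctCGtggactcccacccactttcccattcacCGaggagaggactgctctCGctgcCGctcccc
Gfra1, chr19:58455349-58455648, minus strand: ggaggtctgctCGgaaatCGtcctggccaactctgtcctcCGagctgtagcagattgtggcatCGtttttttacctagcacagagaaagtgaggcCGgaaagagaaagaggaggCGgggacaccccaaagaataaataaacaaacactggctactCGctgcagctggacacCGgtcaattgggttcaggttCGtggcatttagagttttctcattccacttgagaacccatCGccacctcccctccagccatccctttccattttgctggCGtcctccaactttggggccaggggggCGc

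The window of Nrtn held 28 CG and that of Ntrk2 held 23, and 14.2% and 21.5% of 32841 mouse promoter windows held as many or more. The median over all windows was 7 CG. Gfra1 held 12 CG (39.6% of windows held as many), and Artn, which rose, held 16 (33%). Ntf3, which did not pass the threshold, has 2 starts with 12 and 17 CG, and Cntf held 3. The genes that rose and the others thus overlapped in CG count.

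Bdnf has 7 starts in RefSeq, with 2 to 13 CG in each window, and the gene-level counts do not say which of them was used. The printed window, the third along the gene, was the only one of the 14 with the letters TGACG on either strand, the shorter form of the motif bound by the activity-responsive factor CREB. It lies on the strand opposite to the one printed, and it includes one of the CG in capitals. Windows with TGACG made up 20.8% of all promoter windows. The match is a description of the letters in the window.

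**Figure D3:**
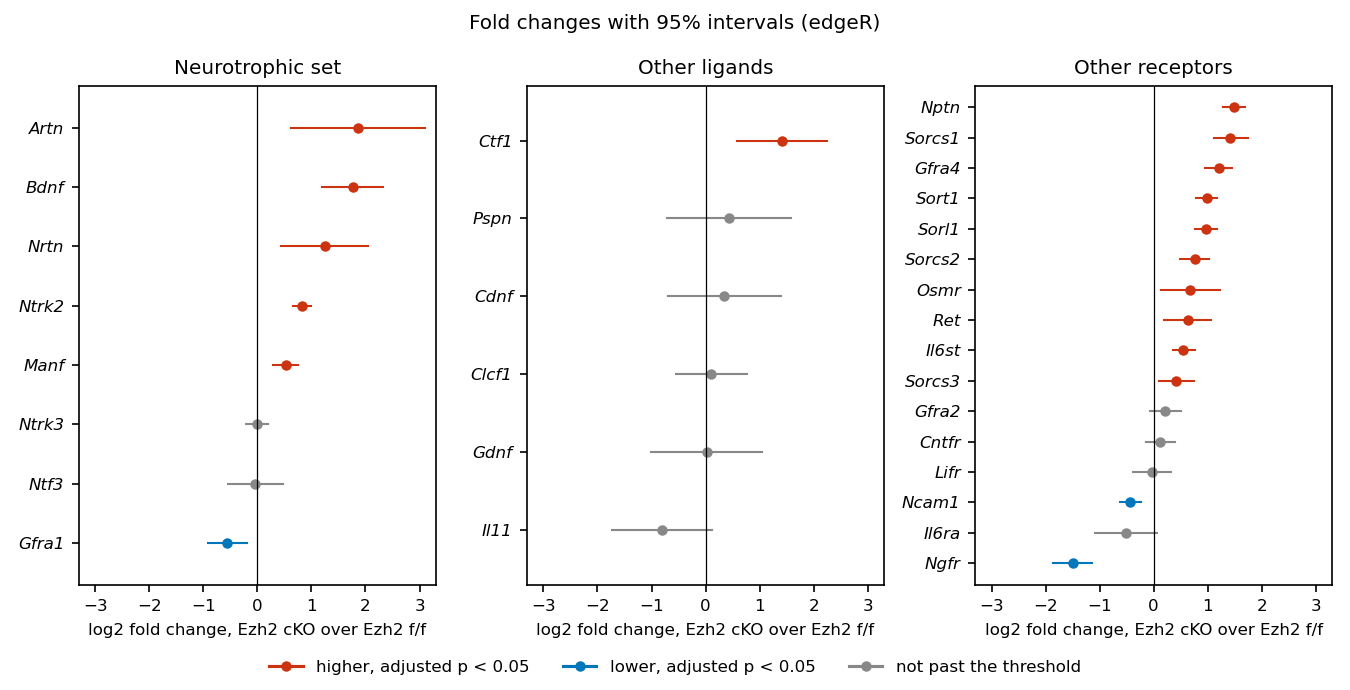
Log2 fold change of Ezh2 cKO over Ezh2 f/f with 95% intervals (lines) for the tested genes of the set and for other listed ligands and receptors. Red marks genes called higher, blue genes called lower and grey genes not past the threshold. Ngfr lies lowest among the receptors at -1.50 and Nptn highest at 1.49.

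The rest of the ligand family was read in the same fit. Of 12 other ligands listed, 8 were tested, and 2 rose, 1 fell and 5 did not pass. Their median log2 fold change was 0.23, beside 0.02 over all genes tested, of which 34.7% were called higher and 33.6% lower. Ctf1, which encodes cardiotrophin, was counted 10, 14, 33 and 36 times, in the order Ezh2 f/f then Ezh2 cKO (1.42, SE 0.39, edgeR adjusted p = 0.00499). Both Ezh2 cKO libraries were above both Ezh2 f/f libraries, and only 1 Ezh2 f/f library reached the 0.588 CPM of the filter, so Ctf1 passed it through the Ezh2 cKO pair. With either Ezh2 cKO library left out, and in DESeq2, 1 ligand of the list was called higher, and with Ezh2 cKO replicate 2 left out the number called lower was 0.

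Gdnf itself was low in all libraries, at 18, 9, 11 and 18 counts, and its log2 fold change of 0.02 had an interval from -1.01 to 1.05. Pspn (0.43), Cdnf (0.35), Clcf1 (0.11) and Il11 (-0.81) did not pass the threshold either. Too few reads for a test were counted for Ntf5, Lif, Osm and Il6, none of which had more than 5 counts in any library. Il6 was at 0 in both Ezh2 f/f libraries, a level that allows up to 0.171 and 0.184 CPM of raw totals.

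Of 19 other receptors and coreceptors listed, 17 were tested, and 10 rose, 2 fell and 5 did not pass. Their median log2 fold change was 0.55, beside 0.02 over all genes tested, of which 34.7% were called higher and 33.6% lower. Ngfr, the p75 receptor of all neurotrophins and their precursors, was counted 268 and 289 times in Ezh2 f/f, against 103 and 107 times in Ezh2 cKO. The groups were far apart, a log2 fold change of -1.50 (SE 0.17, edgeR adjusted p = 2.54e-06). Sortilin, which binds precursors together with p75, and its relatives went the other way. Sort1, which encodes sortilin, was counted 2075, 1798, 4022 and 4104 times (0.98, SE 0.09, edgeR adjusted p = 2.97e-07). The related sorting receptors Sorcs1 (1.42), Sorl1 (0.97), Sorcs2 (0.76) and Sorcs3 (0.42) were also higher, all 5 of this family being past the threshold.

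On the GDNF side, Ret, the kinase shared by all GFRα coreceptors, rose from 88 and 115 to 181 and 157 counts (0.64, SE 0.20, edgeR adjusted p = 0.0128). Gfra4, the coreceptor of persephin, rose from 296 and 283 to 682 and 739 counts (1.20, SE 0.12, edgeR adjusted p = 5.96e-07). Ncam1, an adhesion molecule that can also receive GDNF, fell by 0.43 on the log2 scale. Gfra2, the coreceptor preferred by neurturin, had a log2 fold change of 0.21 that did not pass, and Gfra3, the coreceptor of artemin, had 4, 3, 2 and 1 counts and was not tested. Gfral had 1 count in all.

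Of the receptors on the CNTF side, Il6st, which encodes the shared subunit gp130, rose by 0.55 and Osmr, the oncostatin M receptor, by 0.68 on the log2 scale. Cntfr (0.12), Lifr (-0.04) and Il6ra (-0.51) did not pass the threshold. Nptn, an adhesion molecule of synapses that was on the list but is no neurotrophin receptor, had the largest rise of the list, from 2053 and 1874 to 5514 and 6212 counts (1.49, SE 0.09, edgeR adjusted p = 9.42e-09). It is included in the counts and median given for the list of receptors.

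**Figure D4:**
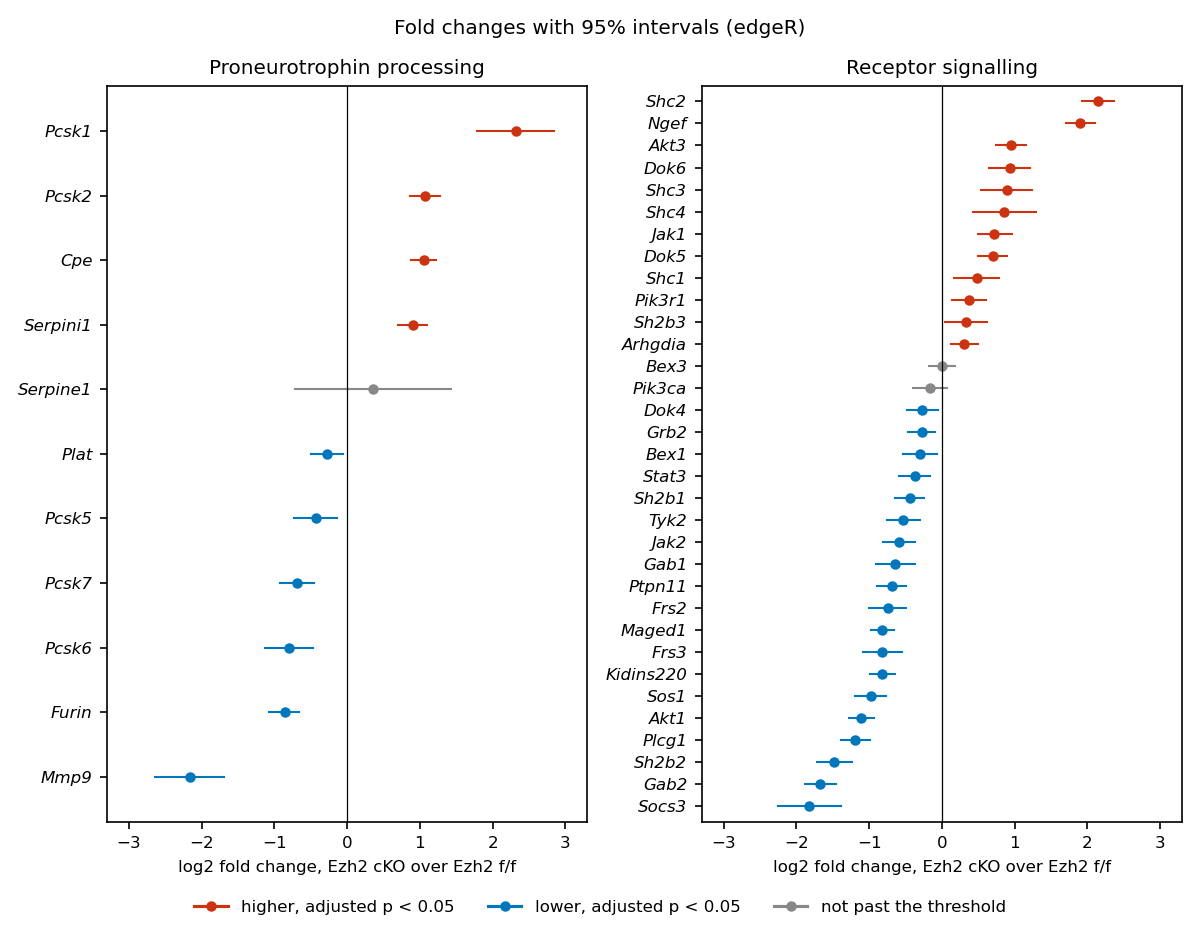
Log2 fold change of Ezh2 cKO over Ezh2 f/f with 95% intervals (lines) for the tested genes that process proneurotrophins (left) and that carry signals inside the cell (right). Red marks genes called higher, blue genes called lower and grey genes not past the threshold. Pcsk1 at 2.32 and Mmp9 at -2.16 are the ends of the left panel, Shc2 at 2.15 and Socs3 at -1.82 those of the right.

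Neurotrophins are made as precursors that proteases inside or outside the cell cut to the mature form. Of 14 genes listed for this step 11 were tested, and 4 rose, 6 fell and 1 did not pass. Their median log2 fold change was -0.27, beside 0.02 over all genes tested, of which 34.7% were called higher and 33.6% lower. Pcsk1, a convertase of the regulated secretory pathway, was counted 25 and 33 times in Ezh2 f/f and 155 times in each Ezh2 cKO library (2.32, SE 0.24, edgeR adjusted p = 1.33e-06). Its partner Pcsk2 (1.07) and Cpe, a carboxypeptidase of the same vesicles (1.05), were also higher, as was Serpini1 (0.90), which encodes neuroserpin, an inhibitor of tissue plasminogen activator. Of the 6 genes that fell, Mmp9, a secreted protease that can cut proneurotrophins outside the cell, had the largest change, from 249 and 296 to 51 and 79 counts (-2.16, SE 0.22, edgeR adjusted p = 1.01e-06).

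Of 33 genes listed for the signals of these receptors, all were tested, and 12 rose, 19 fell and 2 did not pass, with a median log2 fold change of -0.30. Shc2, an adaptor that binds activated Trk receptors, had the largest rise, from 301 and 261 to 1307 and 1343 counts (2.15, SE 0.10, edgeR adjusted p = 7.06e-10). Ngef was also higher (1.90). It encodes ephexin, which acts with ephrin receptors, not with Trk, but it is included in the counts and median of the list. Socs3, a feedback inhibitor of cytokine signalling through JAK kinases, fell from 250 and 192 to 75 and 58 counts (-1.82, SE 0.20, edgeR adjusted p = 1.92e-06). The adaptors Gab2 (-1.67) and Sh2b2 (-1.48) were also lower. Over all genes tested, 34.7% were called higher, near the share of these genes that rose, and 33.6% lower. The share of these genes called lower was above that 33.6%, and no test of that excess was made.

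**Figure D5:**
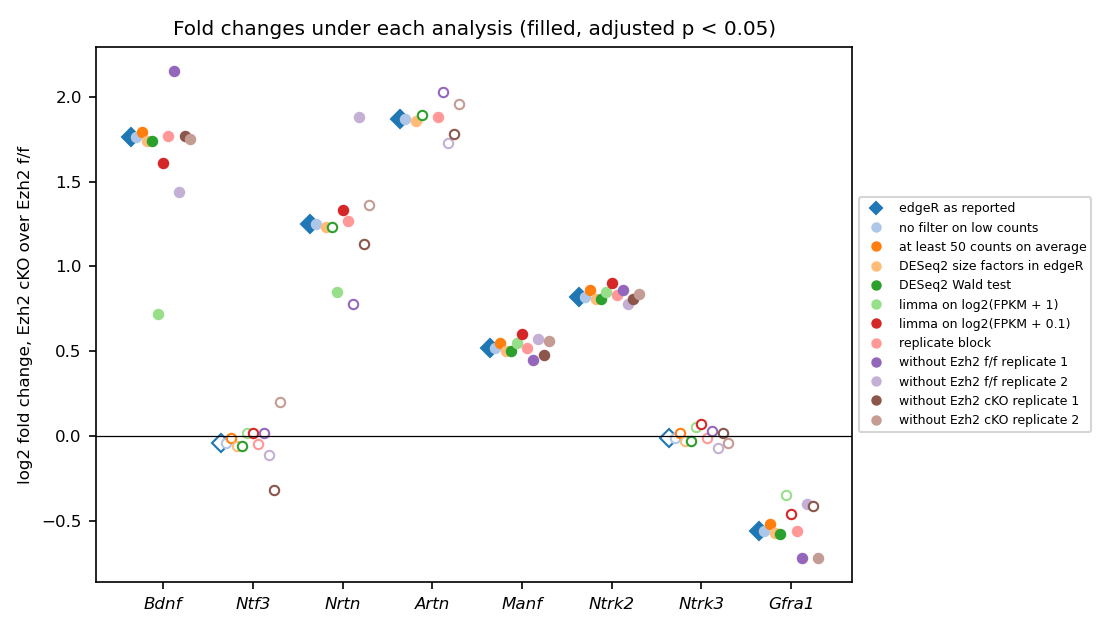
Log2 fold change of the 8 tested genes under the reported analysis (diamonds) and each alternative (circles), filled where the adjusted p was under 0.05. Bdnf, Manf and Ntrk2 are filled throughout, Artn, Nrtn and Gfra1 are open in some, and Ntf3 and Ntrk3 are open in all and lie on both sides of 0.

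The calls of Bdnf, Manf and Ntrk2 held in every alternative run, while the calls of Nrtn, Artn and Gfra1 rested on the libraries and the test used.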

How the data were processed

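The authors sequenced RNA of cells purified with beads as astrocytes on an Illumina HiSeq instrument. The submitters' processing notes name Bowtie2 2.2.3, TopHat2 2.0.12, HTSeq 0.6.0 and the build mm9. The deposited positions differ from GRCm38 (GENCODE M21) in 28218 of 28799 matched genes. They were not compared with mm9, so the named build was not checked and no deposited position is printed. The authors deposited a table of raw read counts per gene and a table of FPKM, and their columns of fold changes and p-values were not used. For the genes of the set, the length implied by counts, total count and FPKM was the same in every library with a count. It was not compared with the exon length of an annotation.

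Counts were tested in edgeR 4.0.16 (R 4.3.3; TMM, filterByExpr with a minimum of 10 counts, quasi-likelihood test, group as the only term, Benjamini-Hochberg over 16793 genes), after the script was tested on simulated data. Intervals are the log2 fold change with its SE and the t distribution of the fit. Alternatives were no filter, a mean of at least 50 counts, DESeq2 1.42.0 (its size factors in edgeR, and its Wald test), limma 3.58.1 on log2(FPKM + 1) and log2(FPKM + 0.1) (genes that reach an FPKM of 1 in 2 libraries), a block for the replicate number, and each library left out. TMM factors ran from 0.967 to 1.04. No gene list was tested as a set.

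The members and gene lists were chosen with earlier results of these data known. All members are named, with the called genes among other ligands and receptors (some listed genes are counted but not reported here by name), the 5 largest called changes of the processing and signalling lists taken separately, and the 3 genes nearest in profile to Bdnf and to Ntrk2.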

Additional observations from a re-analysis of the deposited data

How the results depend on the processing

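Over 84 values of the tested genes under the alternatives, 63 kept their direction and side of the threshold, 12 kept the direction but were no longer past it, and 9 changed sign. All 9 sign changes were of Ntf3 and Ntrk3, which were never past the threshold. Ntf3 (-0.04 as reported) was 0.02 in limma with either pseudocount and -0.32 to 0.20 with each library left out. Ntrk3 (-0.01) was 0.02 with a mean of at least 50 counts, 0.05 and 0.07 in limma with pseudocounts of 1 and 0.1, and -0.07 to 0.03 with each library left out. The 5 genes called higher became 3 with a mean of at least 50 counts (Artn and Nrtn were not tested), 3 in DESeq2, and 3 to 4 with each library left out (4 without Ezh2 f/f replicate 2). The 1 gene called lower became 0 in limma with either pseudocount and 0 to 1 with each library left out (0 without Ezh2 cKO replicate 1). The 2 other ligands called higher became 0 with a mean of at least 50 counts, where 1 was tested, 1 in DESeq2, and 1 to 2 with each library left out (1 without either Ezh2 cKO replicate). The 1 called lower became 0 to 1 (0 without Ezh2 cKO replicate 2). Apart from the filters, which tested fewer genes, the cause was not tested. Of 110 list counts, 97 were within 1.5 times the reported one. No setting shifted the median of all genes by more than 0.08 on the log2 scale. In the fits that left out 1 library, the lone sample was assumed to vary like the other group.

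The replicate numbers did not pair the libraries by any label. The deviations of the replicate 1 libraries from their group means correlated at 0.13 over the genes tested. With 2 libraries per group, the replicate 2 deviations give the same value and add no information. With the replicate number as a block, 5 of the tested genes were still called higher and 1 lower, the log2 fold change of Bdnf was 1.77, and no call among these genes changed. Depth limits Cntf and Artn most, which had no more than 15 counts in any library.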
